A study of Mus musculus with 6 samples.

Results

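The genes described here are the TGF-beta ligands Tgfb1, Tgfb2 and Tgfb3, the receptors Tgfbr1, Tgfbr2 and Tgfbr3, and the Smad proteins Smad2, Smad3, Smad4 and Smad7. The 10 genes were given by name, and every probe set whose platform annotation held exactly 1 of these symbols was taken, which gave 25 of 45037 probe sets. They were measured in mouse uterus in which Indian hedgehog (Ihh) was ablated and in control uterus. The 3 Ihh-ablated samples (genotype PRcre/+Ihhf/f, written Ihhd/d) carried floxed Ihh alleles and a Cre recombinase at the progesterone receptor locus. The 3 control samples (Ihhf/f) carried the floxed alleles without ablation. Uteri of both groups were collected at day -1 of an artificially induced decidual response. In this model, hormones and a stimulus to the lumen make the stroma differentiate as in pregnancy. By its minus sign, day -1 lies before the start of that response. The labels used here give neither age nor strain. The Cre is driven from the progesterone receptor locus, which is active in several uterine cell types, and every Ihh-ablated sample carries it, so that its effect and that of Ihh loss cannot be told apart. Whether the 6 samples came from 6 separate mice is not stated, and p-values therefore cover the spread among these arrays only, part of which may be technical.

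TGF-beta ligands are made as latent dimers, stored in the matrix and freed there by integrins and proteases. The active ligand binds the type II receptor Tgfbr2, which phosphorylates the type I receptor Tgfbr1, and the co-receptor Tgfbr3 (betaglycan) presents the ligand. Tgfbr1 phosphorylates Smad2 and Smad3, which join Smad4 and enter the nucleus. Smad7 binds the activated type I receptor and blocks it, and its own gene is induced by the pathway, which makes it a negative feedback. In the uterus the pathway is known for its part in stromal and smooth muscle differentiation, in matrix deposition and in the development of the myometrium.

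Each sample was read on 1 Affymetrix Mouse Genome 430 2.0 array, and values are the authors' processed intensities on a linear scale. The Hedgehog genes follow the labels: Gli1, which reports Hedgehog signalling, had 76.3, 74.9 and 64.8 in Ihh-ablated uteri, against 515, 386 and 356 in control uteri (log2 difference -2.53, limma adjusted p = 0.000492). The Hedgehog receptor and target Ptch1 had 382, 401 and 449 in Ihh-ablated uteri and 1612, 1146 and 1147 in control uteri (log2 difference -1.65, adjusted p = 0.00146). The Ihh probe set itself had 121, 93.3 and 135 in Ihh-ablated uteri and 164, 162 and 140.2 in control uteri (log2 difference -0.43, limma adjusted p = 0.164), and whether it lies in the deleted part is not known. In both groups the labels also carry the name of another mouse model, SmoM2, as the RNA source, which goes against the titles. Some arrays carried transcripts of other tissues. The summed intensity of 8 pancreas markers was 74065 in Ihh-ablated replicate 2, against 808 and 954 in the other Ihh-ablated arrays and 966 to 2798 in control arrays. Skeletal muscle markers, 8 genes, summed to 1989 to 2575 in Ihh-ablated arrays, against 5025 to 12776 in control arrays, highest in control replicate 3. In control replicates 1 and 2 most of the sum was Acta1 (4164 and 3559), which fell by 1.73 on the log2 scale (limma adjusted p = 0.00208). Mylpf had 83.9, 88.5 and 2075 in control arrays, against 73.7 to 86.6 in Ihh-ablated arrays. Tnnt3 had 108, 123 and 1039 in control arrays, against 103 to 121. Ckm, Tnni2, Myh1 and Myh2 were lower in every Ihh-ablated array than in every control array. Adipocyte markers, 10 genes, summed to 11835, 17404 and 27277 in Ihh-ablated arrays, against 3686, 8882 and 15047 in control arrays. Markers of the uterus itself were present on every array. The 12 epithelial markers had a mean log2 intensity of 10.15 to 10.23 in Ihh-ablated arrays, against 9.60 to 10.14 in control arrays; 11 were higher (median difference 0.33) and 0 passed the test. Of 11 stromal markers, which summed to 27228 to 27756 in Ihh-ablated arrays and 26255 to 30631 in control arrays, Thy1 fell by 1.44 and Vim by 0.37 on the log2 scale, and Dcn rose by 0.24. The 10 smooth muscle markers summed to 55916 to 56208 in Ihh-ablated arrays and 54383 to 58766 in control arrays. Of them Actg2 fell by 0.25 on the log2 scale (limma adjusted p = 0.0337), and 9 did not pass. In such tissue, fewer cells of a type and less RNA per cell cannot be told apart.

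Regulatory sequence is shown for Tgfb2, the member gene whose window held the most matches to CAGAC, a motif that Smad3 and Smad4 bind, and for Tgfbi, the gene with the largest difference in the list of TGF-beta targets described further on. Both windows run from 250 bases before to 50 bases after a RefSeq start site, 5′ to 3′ on the strand of the gene, in build GRCm38.p6. Tgfb2 is read from chr1:186705940-186706239 on the minus strand and Tgfbi from chr13:56609336-56609635 on the plus strand. Capitals mark CAGAC or its reverse complement GTCTG.
Tgfb2: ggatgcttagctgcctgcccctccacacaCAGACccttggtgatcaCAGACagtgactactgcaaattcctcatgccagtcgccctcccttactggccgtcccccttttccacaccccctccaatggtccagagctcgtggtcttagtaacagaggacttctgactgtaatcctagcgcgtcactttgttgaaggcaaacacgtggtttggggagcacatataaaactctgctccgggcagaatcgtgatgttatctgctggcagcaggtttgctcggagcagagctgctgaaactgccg
Tgfbi: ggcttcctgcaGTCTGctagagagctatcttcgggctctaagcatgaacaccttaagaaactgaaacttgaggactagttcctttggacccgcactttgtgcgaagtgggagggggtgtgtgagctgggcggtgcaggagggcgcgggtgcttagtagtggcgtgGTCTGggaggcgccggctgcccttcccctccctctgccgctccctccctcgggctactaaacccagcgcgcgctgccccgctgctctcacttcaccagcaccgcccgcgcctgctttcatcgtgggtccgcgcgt
The matches begin 221 and 204 bases before the start site in Tgfb2, and 239 and 85 bases before it in Tgfbi. Matches to CAGAC on either strand were held by 49.6% of 32851 mouse promoter windows of this length, so a match is common. RefSeq windows were at hand for 5 of the 10 genes (Tgfb1, Tgfb2, Tgfbr1, Tgfbr2 and Smad3), and 3 of their 6 windows held the letters. The palindrome GTCTAGAC, held by 0.213% of all windows, and the GLI site GACCACCCA on either strand, held by 0.253%, were in 0 of these 6 windows.

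Among the 10 genes, the inhibitory Smad7 and the co-receptor Tgfbr3 were higher in Ihh-ablated uteri, and no ligand and no receptor-activated Smad passed the test. Of 25 probe sets, 23 passed the filter on dim values, and the other 2, of Tgfbr1 and Tgfbr2, had no test. Of these 23, 2 rose and 0 fell at an adjusted p under 0.05 (limma, adjusted over all 33777 probe sets tested). Over the whole array 1.03% of probe sets rose and 1.11% fell, 2.14% in all. By the brightest probe set of each gene, 2 of 10 genes rose, where 1.28% of all genes rose and 1.53% fell. At an unadjusted p under 0.05, 7 member probe sets were higher and 0 lower, against 9.87% higher and 13% lower over all probe sets. These 7 were the 3 Smad4 probe sets, both Smad7 probe sets and the brightest of Tgfbr1 and of Tgfbr3. Probe sets of 1 gene are repeat reads of it and not separate members. The median log2 difference was 0.18 over the 23 probe sets and -0.04 over all probe sets tested, and 18 of the 23 were above 0. The groups did not overlap in 8 of 23, with 8 higher and 0 lower in Ihh-ablated uteri. Over all probe sets tested they did not overlap in 31%, with 13.1% higher and 17.9% lower. The 2 calls became 0 without Ihh-ablated replicate 1, 2 or 3 or without control replicate 1, 1 when control replicate 2 was left out, and 4 when control replicate 3 was. Calls over the whole array moved with them: 724 probe sets were called as reported, 3569 when control replicate 3 was left out and 156 to 353 when any other array was. They were 3 without both control replicate 3 and Ihh-ablated replicate 2, the arrays with the most muscle and pancreas transcripts, and 0 with the mean adipocyte marker level as a covariate, in fits that called 1915 and 34 probe sets of the whole array.

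**Figure D1:**
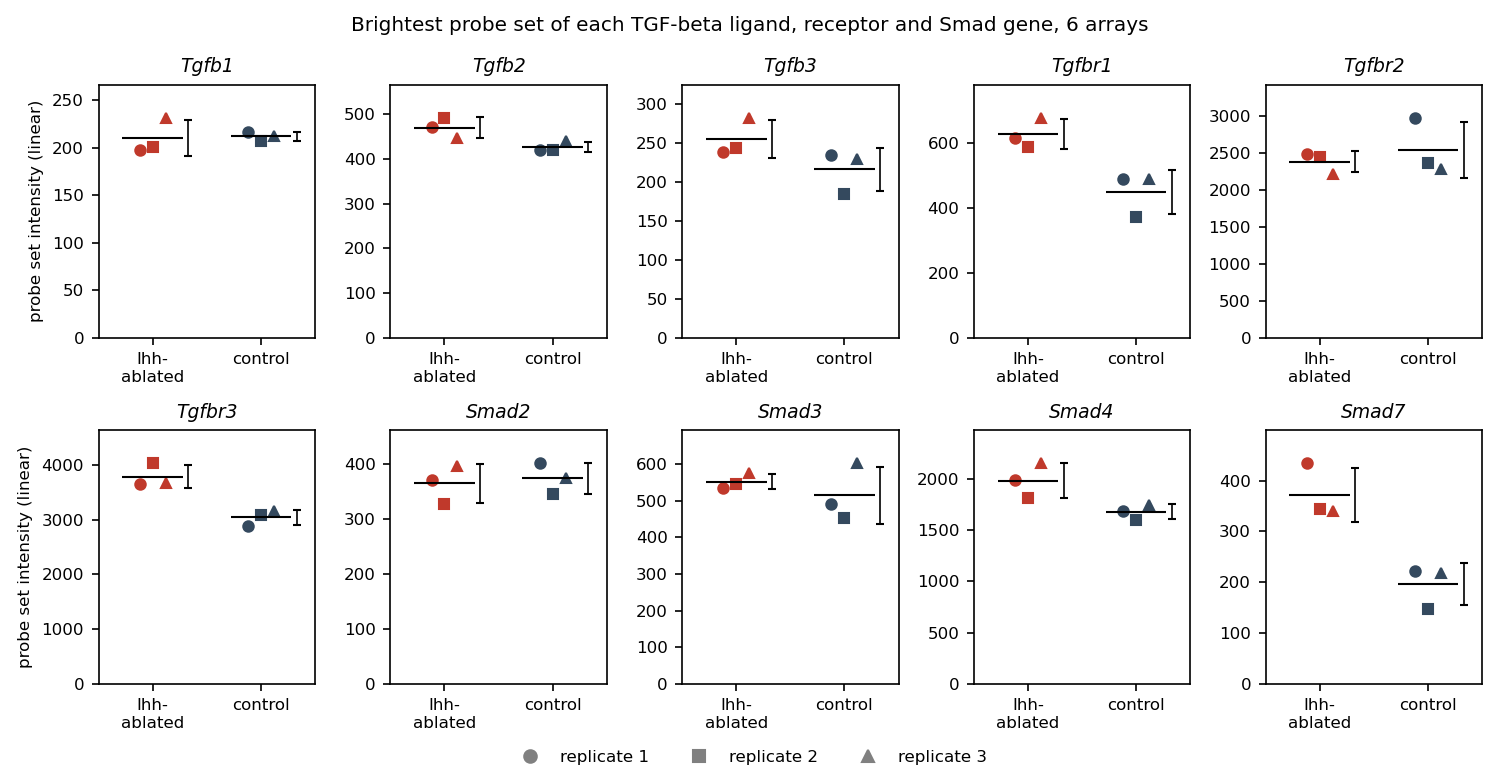
Intensity on a linear scale (vertical axis, from 0) of the brightest probe set of each of the 10 genes in 3 Ihh-ablated and 3 control arrays; symbols are replicates, horizontal lines are group means and bars are 1 SD. For Smad7 the Ihh-ablated arrays lie between 339.9 and 434, above all control arrays (148 to 222), while Tgfb1 and Smad2 overlap.

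**Figure D2:**
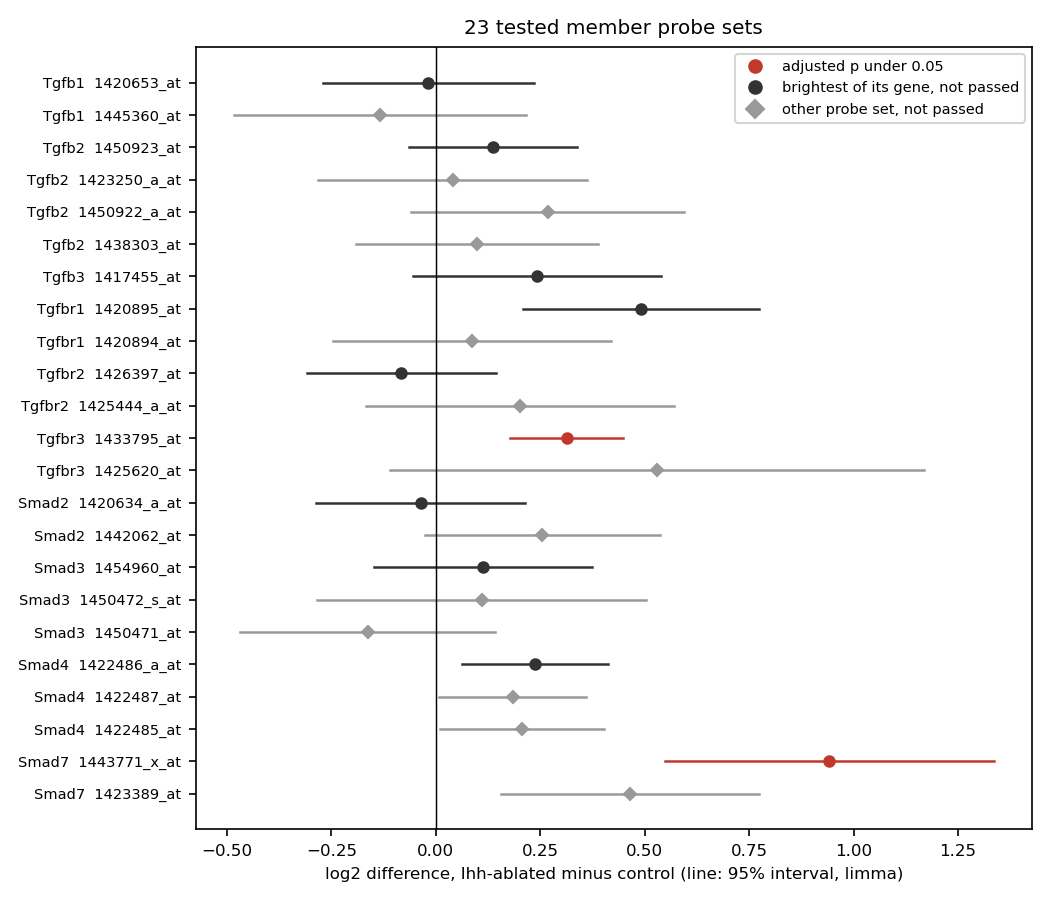
Log2 difference, Ihh-ablated minus control, of the 23 tested member probe sets (points) with 95% intervals (lines, limma); circles mark the brightest probe set of a gene, diamonds its others, and red those at an adjusted p under 0.05. Smad7 (0.94) and Tgfbr3 (0.31) are red, and 18 of 23 points lie to the right of 0.

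None of the 3 ligands passed the test. Tgfb1, the ligand best known for immune regulation and matrix deposition, had 197, 201 and 232 in Ihh-ablated uteri, against 217, 207 and 212 in control uteri. The groups overlapped, and the log2 difference was -0.02 with a 95% interval from -0.27 to 0.23 (limma adjusted p = 0.932), so that the data allow a level between 0.829 and 1.18 times that of control. The other Tgfb1 probe set read 126, 146 and 138 in Ihh-ablated uteri and 134, 187 and 134 in control uteri, where control replicate 2 stood above all other arrays (log2 difference -0.13, adjusted p = 0.607). Tgfb1 lies on chromosome 7, from 25687002 to 25705077 (GRCm38.p6).

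Tgfb2, a ligand that depends on Tgfbr3 for binding to Tgfbr2, had 471, 492 and 446 in Ihh-ablated uteri, against 421, 421 and 439.9 in control uteri. Each Ihh-ablated array was above each control array, by a small margin, and the difference of 0.14 did not pass (95% interval -0.06 to 0.34, limma adjusted p = 0.370). Its other 3 probe sets differed by 0.04, 0.27 and 0.10, all with overlapping groups (adjusted p = 0.875, 0.293 and 0.649). Thus all 4 Tgfb2 probe sets, whose promoter window is printed above, had a difference above 0 that did not pass. Tgfb3, the third ligand, had 239, 244 and 283 in Ihh-ablated uteri and 235, 185 and 229 in control uteri, without overlap and with control replicate 2 lowest. Its single probe set differed by 0.24 (95% interval -0.05 to 0.54, limma adjusted p = 0.294).

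Among the receptors, Tgfbr3 rose and Tgfbr1 was higher without passing. The brightest Tgfbr3 probe set, at the 98.9 percentile of all probe sets, had 3663, 4031 and 3667 in Ihh-ablated uteri, against 2895, 3089 and 3154 in control uteri. The groups did not overlap, and the means were 3787 ± 212 in Ihh-ablated uteri and 3046 ± 135 in control uteri (SD, n = 3 each). That is a 1.24-fold rise (log2 0.31, SE 0.06, limma adjusted p = 0.0337), small in size but larger than the spread between arrays. The call held in 8 of 19 alternatives, with differences of 0.26 to 0.42 in all 19. On all 6 arrays it was lost after quantile normalization (adjusted p = 0.0597), with median-centred arrays (0.0595), without a filter (0.0518), without an intensity trend (0.143), with the adipocyte covariate (0.364) and with the mean of both probe sets (0.177). It was also lost on leaving out each of the Ihh-ablated arrays in turn (highest adjusted p 0.105) and on leaving out control replicate 1 (0.125) or 2 (0.0904), and it held without control replicate 3 (0.0169) and without both arrays with other-tissue transcripts (0.0392). The other Tgfbr3 probe set had 319, 673 and 307 in Ihh-ablated uteri, against 278, 348 and 226 in control uteri. Ihh-ablated replicate 2, the array with pancreas transcripts, stood far above the rest, and without it the difference was 0.16 in place of 0.53 (adjusted p = 0.661 and 0.289). Tgfbr3 lies on chromosome 5, from 107106567 to 107289629.

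Tgfbr1, the type I kinase that phosphorylates Smad2 and Smad3, had 615, 585 and 677 in Ihh-ablated uteri, against 487, 370.1 and 488 in control uteri. No Ihh-ablated array overlapped the control arrays, of which replicate 2 was lowest. The means were 626 ± 46.8 in Ihh-ablated uteri and 448 ± 67.6 in control uteri (SD, n = 3 each), 1.41-fold higher, with a log2 difference of 0.49 (SE 0.13) that did not pass (limma adjusted p = 0.0823). It passed without control replicate 3 (0.56, adjusted p = 0.0342) and without both arrays with other-tissue transcripts (0.60, adjusted p = 0.0473). Its second probe set, near the filter limit of 71.4, read 83.2, 74.8 and 85.9 in Ihh-ablated uteri and 69.9, 92.3 and 69.3 in control uteri, a difference of 0.09 (adjusted p = 0.735). The third was left out as dim, with 56.6, 54.9 and 81.4 in Ihh-ablated uteri and 47.6, 58.2 and 49.0 in control uteri. Tgfbr1 lies on chromosome 4, from 47353222 to 47414926, and of its 2 promoter windows 1 holds CAGAC.

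Tgfbr2, the type II receptor that binds the ligand first, was bright in both groups and overlapped. Its brightest probe set had 2489.7, 2444 and 2217 in Ihh-ablated uteri, against 2978, 2361 and 2279 in control uteri, with control replicate 1 highest. The difference was -0.08 (95% interval -0.31 to 0.14, limma adjusted p = 0.624), which was 0.01 with median-centred arrays and 0.04 without control replicate 1. A second probe set differed by 0.20 (adjusted p = 0.462), in the other direction, and the third, at 42.4 to 53.1 in Ihh-ablated uteri and 31.9 to 65.1 in control uteri, was left out as dim.

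Smad2, Smad3 and Smad4, which carry the signal, did not pass the test. Smad2 had 371, 326 and 396 in Ihh-ablated uteri, against 400.5, 346 and 373 in control uteri, which overlap (log2 difference -0.04, limma adjusted p = 0.852). Its dimmer probe set differed by 0.25 without overlap and did not pass (adjusted p = 0.256). Smad3, which binds DNA directly, had 536, 545 and 576 in Ihh-ablated uteri, against 490.1, 453 and 602 in control uteri, where control replicate 3 was above every other array. The difference was 0.11 (adjusted p = 0.565), and its dimmer probe sets differed by 0.11 and -0.16 (adjusted p = 0.714 and 0.474).

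Smad4, the partner shared by all activated Smads, was measured by 3 bright probe sets. The brightest had 1987, 1813 and 2153 in Ihh-ablated uteri, against 1687, 1602 and 1751 in control uteri, with no overlap. Its difference of 0.24 (SE 0.08, 95% interval 0.06 to 0.41) did not pass after adjustment over the array (limma adjusted p = 0.132). The other probe sets gave 0.18 and 0.21 with overlapping groups (adjusted p = 0.203 and 0.201). The 3 probe sets thus differed by 1.14 to 1.18-fold, and in each of them the highest array was Ihh-ablated replicate 3.

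Smad7 had the largest difference of the 10 genes. Its brighter probe set had 434, 344 and 339.9 in Ihh-ablated uteri, against 222, 148 and 217 in control uteri. Every Ihh-ablated array was above every control array, and control replicate 2 was lowest. The means were 373 ± 53.3 in Ihh-ablated uteri and 196 ± 41.7 in control uteri (SD, n = 3 each), a 1.92-fold rise (log2 0.94, SE 0.17, limma adjusted p = 0.0301). The second Smad7 probe set had 270.4, 246 and 245 in Ihh-ablated uteri, against 194, 153 and 209 in control uteri. Here too the groups did not overlap, but the difference of 0.46 (SE 0.14) was smaller and did not pass (adjusted p = 0.112). The probe set that passed has a name ending in _x_at, which in the maker's naming marks probes that can also match other transcripts, and the platform annotation gives no accession for it. The mean of both probe sets rose by 0.70 (limma adjusted p = 0.0460, fitted over genes). Smad7 lies on chromosome 18, from 75367365 to 75395935.

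The direction of Smad7 held in all 19 alternatives, at 0.70 to 1.08, and the call in 11 of them. On all 6 arrays it was lost after quantile normalization (0.97, adjusted p = 0.0635), without a filter (0.94, adjusted p = 0.0504) and without an intensity trend (0.94, adjusted p = 0.0593). Leaving out Ihh-ablated replicate 1 (0.83, adjusted p = 0.123), 2 (1.00, adjusted p = 0.0645) or 3 (1.00, adjusted p = 0.0851) ended the call, as did leaving out control replicate 1 (1.05, adjusted p = 0.0767). With control replicate 2 left out it held at 0.75 (adjusted p = 0.0471), and with control replicate 3 left out at 1.03 (adjusted p = 0.0134). Without both arrays with other-tissue transcripts the rise was 1.08 (adjusted p = 0.0176). With the adipocyte covariate the difference was as large, at 1.08, but did not pass (adjusted p = 0.173), in a fit with 3 in place of 4 residual degrees of freedom.

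**Figure D3:**
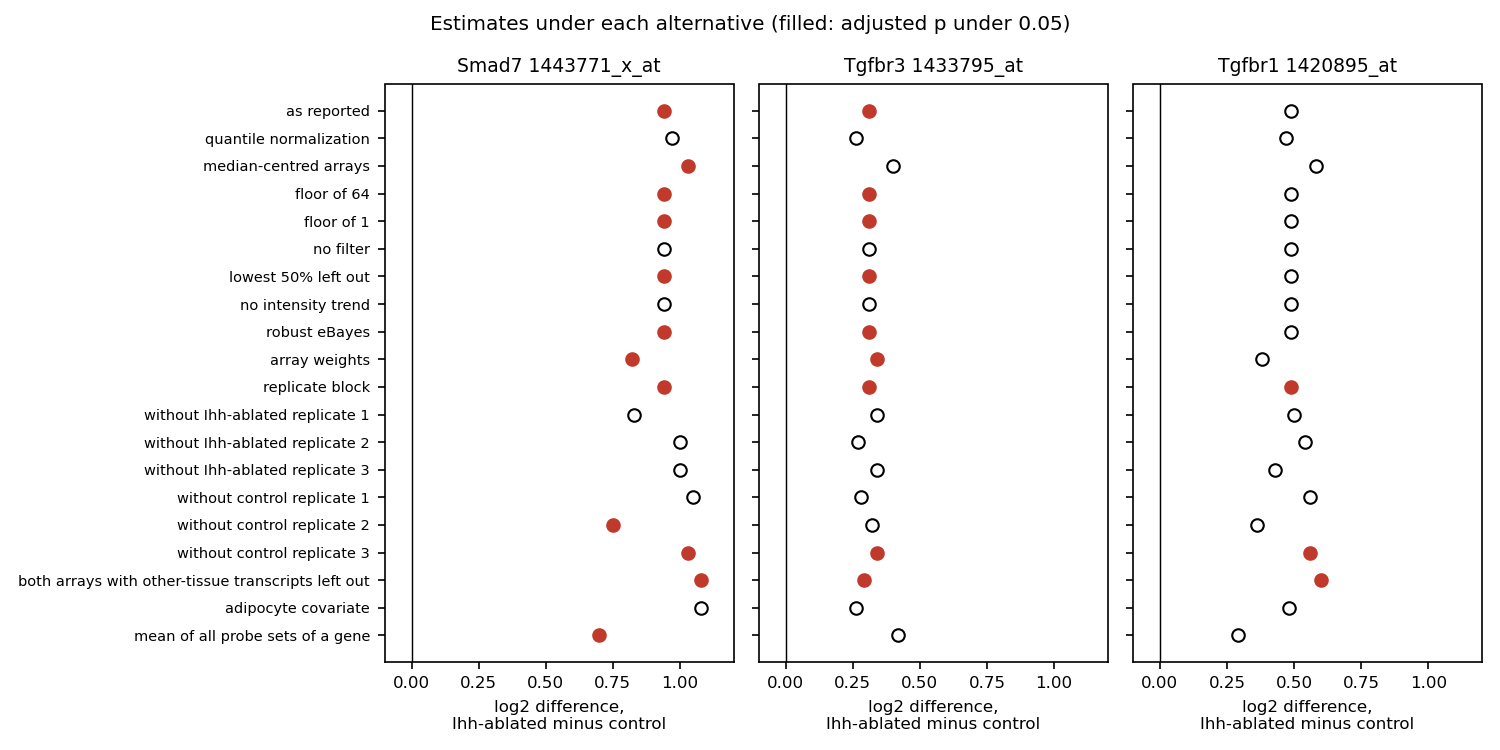
Log2 difference, Ihh-ablated minus control (horizontal axis), of Smad7, Tgfbr3 and Tgfbr1, each by its brightest probe set, as reported and under 19 alternatives (rows); filled red points passed at an adjusted p under 0.05 and open points did not. Smad7 stays between 0.70 and 1.08, Tgfbr3 between 0.26 and 0.42 and Tgfbr1 between 0.29 and 0.60, and the filled points change with the arrays included.

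The members also varied between arrays of 1 group. Control replicate 2 was the lowest of the 6 arrays in 11 of 23 member probe sets (47.8%), whereas it was lowest in 23.1% of all probe sets tested and highest in 42.5% of them. Its median intensity of 142.5 was the highest, against 121.4 to 124.6 in Ihh-ablated arrays and 125.8 in the other control arrays. Centring every array on its median moved the median difference of all probe sets by 0.09 and that of the members to 0.28. With that centring 1 member, Smad7, passed (1.03, adjusted p = 0.0484), and Tgfbr3 differed by 0.40 (adjusted p = 0.0595). In 6 of the 9 genes with several tested probe sets these had the same direction, and in Tgfbr2, Smad2 and Smad3 they did not.

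The genes whose profile over the 6 arrays was most like that of the brighter Smad7 probe set were Rai2, Rerg, Gpm6a, Nell1 and Ltf. Likeness was the root mean square difference of log2 values, each gene centred on its own mean, among 15529 other genes, and it was 0.0812, 0.0866, 0.102, 0.117 and 0.126 log2 units. Rai2, a retinoic acid induced gene, had 254, 209.5 and 224 in Ihh-ablated uteri, against 136, 92.3 and 151 in control uteri. Ltf, the secreted lactotransferrin of the uterine epithelium, had 2083, 1836 and 2122 in Ihh-ablated uteri and 1087, 819 and 1194 in control uteri. Nell1, a secreted growth regulator, differed by 1.00 on the log2 scale, the small GTPase Rerg by 0.86 and the membrane glycoprotein Gpm6a by 0.77. These 5 genes were picked for their likeness to Smad7 over the same arrays, so their differences are a description with no test. Epithelial markers summed to 18055 to 19982 in Ihh-ablated arrays and 12816 to 18957 in control arrays, and all 12 passed the filter on dim values. Their part in the Smad7 difference was not tested.

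Other genes of the pathway were read from a list of ligand activators, co-receptors, adaptors, ubiquitin ligases and Smad co-repressors. The list gave 44 genes that could be tested. Of these, 4 rose, 1 fell and 39 did not pass, beside 2.81% of all genes called in either direction, and the median log2 difference was 0.10 (-0.04 over all genes). Groups did not overlap in 21 of 44, with 17 higher and 4 lower in Ihh-ablated uteri. Over all genes they did not overlap in 32.3%, with 13.3% higher and 19% lower. With median-centred arrays 3 rose and 0 fell. The genes called were Itgb5, Skil, Tgif1, Pmepa1 and Tgif2.

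Itgb5, the beta 5 integrin that pairs with Itgav and can free latent TGF-beta, had 959, 983 and 1153 in Ihh-ablated uteri, against 613, 670.4 and 733 in control uteri. It rose by 0.62 (SE 0.10, limma adjusted p = 0.0191), and its other 3 probe sets rose too, by 0.67 to 0.70. Among the latent TGF-beta binding proteins, which hold the ligand in the matrix, Ltbp1 differed by 0.49 (1175, 954 and 1268 in Ihh-ablated uteri, against 850.4, 770.5 and 786 in control uteri) and just missed the threshold (adjusted p = 0.0574). Ltbp2, Ltbp3 and Ltbp4 differed by 0.21, 0.29 and 0.29 without overlap and did not pass (adjusted p = 0.304, 0.154 and 0.112).

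Among the nuclear regulators, Skil (SnoN), a co-repressor of Smad complexes and itself a TGF-beta target, had 962, 933 and 936 in Ihh-ablated uteri, against 722, 617 and 660.4 in control uteri. It rose by 0.51 (SE 0.08, limma adjusted p = 0.0200). The other Skil probe set was left out as dim and went the other way. It had 56.1, 56.8 and 51.1 in Ihh-ablated uteri, against 65.1, 70.7 and 59.9 in control uteri. Tgif1 and Tgif2 are related homeodomain co-repressors of Smad2 and Smad3, and they differed in opposite directions. Tgif1 had 533, 591 and 584 in Ihh-ablated uteri and 379, 417 and 410.2 in control uteri, a rise of 0.50 (adjusted p = 0.0292). Tgif2 had 599, 589 and 538 in Ihh-ablated uteri and 911, 888 and 807 in control uteri, a fall of 0.59 on the log2 scale (adjusted p = 0.0126). Its dimmer probe set differed by -0.13 (adjusted p = 0.4995). Pmepa1, a membrane protein that holds back receptor-activated Smads and is induced by TGF-beta, had 375, 411 and 385 in Ihh-ablated uteri, against 267, 269.8 and 279.5 in control uteri (0.52, adjusted p = 0.0288), and its other probe sets differed by 0.24 and 0.11 without passing (adjusted p = 0.229 and 0.646).

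Smad6, the inhibitory Smad of the BMP branch, did not pass: it had 302, 306 and 315 in Ihh-ablated uteri and 293, 409.6 and 309 in control uteri, with control replicate 2 highest (log2 difference -0.12, limma adjusted p = 0.608). Smurf2, a ubiquitin ligase that Smad7 recruits to the receptor, differed by 0.21 (adjusted p = 0.196), and Smurf1 by 0.09 (adjusted p = 0.698). The count of 5 called pathway genes was 0 without Ihh-ablated replicate 1 or 3, 3 without Ihh-ablated replicate 2, 1 without control replicate 1 or 2, 8 without control replicate 3, 5 without both arrays with other-tissue transcripts and 0 with the adipocyte covariate. The last 3 of these fits called 3569, 1915 and 34 probe sets of the whole array, against 724 as reported.

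**Figure D4:**
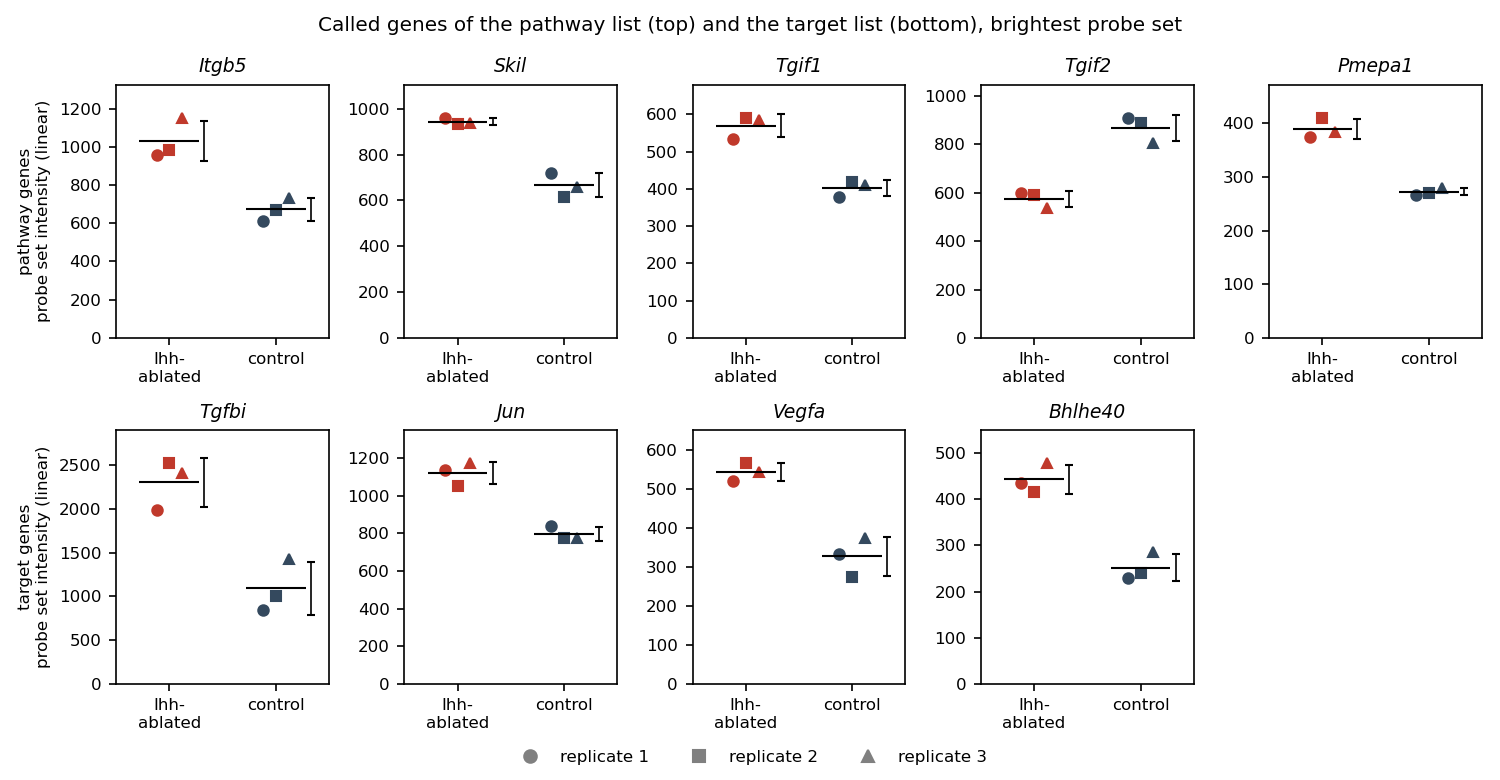
Intensity on a linear scale (vertical axis, from 0) of the 5 called genes of the pathway list (top row) and the 4 of the target list (bottom row) in 3 Ihh-ablated and 3 control arrays; symbols are replicates, horizontal lines group means, bars 1 SD. Tgif2 is lower in Ihh-ablated arrays, and the other 8 genes are higher, with no overlap in any of the 9.

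Genes known to respond to TGF-beta in other cells were called in single members, and the brightest probe sets of the collagen and fibronectin genes of the list did not pass. Of 37 genes tested, 4 rose (10.8%), 0 fell and 33 did not pass, where 1.28% of all genes rose and 1.53% fell. The median log2 difference was -0.03 (-0.04 over all genes). At an unadjusted p under 0.05, 7 were higher (18.9%) and 7 lower (18.9%), against 9.99% higher and 14.2% lower over all genes. Groups did not overlap in 14 of 37, 8 higher and 6 lower, against 13.3% and 19% of all genes.

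Tgfbi, a secreted matrix adaptor named for its induction by TGF-beta, had 1991, 2522 and 2409.7 in Ihh-ablated uteri, against 839, 1009 and 1429 in control uteri. It rose 2.15-fold (log2 1.11, SE 0.17, limma adjusted p = 0.0154), and its other 3 probe sets rose by 1.10, 1.19 and 1.21 with no overlap. With the adipocyte covariate its difference was 0.74 (adjusted p = 0.101). Bhlhe40, a repressor of the clock and of differentiation genes, had 435, 416 and 478 in Ihh-ablated uteri and 229, 240.4 and 285 in control uteri (0.82, adjusted p = 0.0111). Vegfa, the vascular growth factor, had 520.2, 566 and 545 in Ihh-ablated uteri and 333, 274 and 374 in control uteri (0.74, adjusted p = 0.0196), though its other probe set differed by only 0.19 (adjusted p = 0.344). Jun, an immediate early factor of the AP-1 complex, rose by 0.49 (adjusted p = 0.0176), and its second probe set also by 0.49.

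Ccn2, the growth factor-like target most used as a readout of TGF-beta in fibroblasts, had 1378, 1253 and 1291 in Ihh-ablated uteri, against 1429, 1186 and 1575 in control uteri, which overlap (log2 difference -0.09, limma adjusted p = 0.619). Col1a1, which like Col1a2 encodes an alpha chain of type I collagen, differed by -0.15 (limma adjusted p = 0.301). The brightest probe set of fibronectin (Fn1) differed by -0.28 (adjusted p = 0.0968). It had 2433, 2843 and 2723 in Ihh-ablated uteri, against 3429, 2968 and 3335 in control uteri. A dimmer Fn1 probe set differed by 0.16, in the other direction, with overlapping groups (adjusted p = 0.491). Col3a1, of type III collagen, differed by -0.10 (adjusted p = 0.231) and Col1a2 by -0.01 (adjusted p = 0.889), while a dimmer probe set of each fell, by 0.54 and by 0.22 on the log2 scale (adjusted p = 0.0403 and 0.0312). Probe sets of 1 gene also disagreed for Ccn1, a matricellular protein, whose brightest differed by 0.44 without passing (adjusted p = 0.0899) and whose second rose by 0.75 (adjusted p = 0.0391). Its dimmer probe sets differed by -0.02 and -0.12 (limma adjusted p = 0.946 and 0.684). The protease inhibitor Timp1 had 235, 231 and 185 in Ihh-ablated uteri, against 415, 401 and 290.0 in control uteri, a difference of -0.75 that missed the threshold (adjusted p = 0.0501). Snai1, a repressor of epithelial genes, differed by -0.75 as well (adjusted p = 0.0606), and the cytokine Il11 by -0.60 (adjusted p = 0.0968). The brightest probe sets of the smooth muscle genes Acta2 and Tagln differed by -0.10 and 0.14, without overlap. Neither passed (limma adjusted p = 0.147 and 0.103). Dimmer Acta2 probe sets differed by -0.06 and 0.25, with overlapping groups (adjusted p = 0.761 and 0.313). Of the target list, 0 genes passed without Ihh-ablated replicate 3 or control replicate 1, 1 passed without Ihh-ablated replicate 1, 3 without Ihh-ablated replicate 2, 2 without control replicate 2, 8 (5 higher and 3 lower) without control replicate 3, 8 without both arrays with other-tissue transcripts, and 0 with the adipocyte covariate. These gains and losses go with the counts over the whole array given above, 3569, 1915 and 34 in place of 724.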

How the data were processed

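Values are the deposited intensity of each probe set, on a linear scale as the authors processed it; per the labels' protocols, biotinylated cRNA of uterine total RNA was hybridised. How probes were summarised, corrected for background and scaled is not given in the sources used here, which leaves dim probe sets the least certain. Of 45101 probe sets 64 controls were left out. Platform annotation gave 1 symbol for 34945, several for 932 and none for 9160. Values under 16 (1821) were set to 16 before log2, and the lowest 25% by mean log2 were left out, which left 33777. The test was limma 3.58.1 under R 4.3.3 (lmFit, eBayes with intensity trend, Benjamini-Hochberg over all tested probe sets), called at an adjusted p under 0.05; folds, SEs and intervals come from the log2 model, means and SDs from linear intensities. Precision is limited by having 3 arrays a group. The fit was tested on simulated data, where 74 of 100 changes of 2-fold and 96 of 100 of 4-fold were recovered. Of 177 calls, 7 were false. Each simulated probe set was drawn independently, without the variation that probe sets of 1 real array share. The simulation therefore does not give the share of false calls in these data. Changes under 2-fold, the size of every member difference, were not simulated. A gene is represented by its brightest probe set. Named genes were all members, the called genes of both lists, Ihh, Gli1 and Ptch1, and the 5 genes most like the member of lowest adjusted p; other list genes named were chosen after their values were seen. The members and lists were chosen with earlier results of these data known. Alternatives changed normalization, floor, filter, variance model, array weights, replicate block, arrays included, covariate, threshold and probe set. Promoter windows are from RefSeq, GRCm38.p6. Plots used Python 3.11.15 and matplotlib 3.10.9.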

Additional observations from a re-analysis of the deposited data

How the results depend on the processing

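Called members numbered 2 as reported, 0 after quantile normalization, without a filter and without an intensity trend, 1 with median-centred arrays and with a fold of at least 1.5, 0 with the adipocyte covariate, and 0 to 4 with each array left out. Called pathway genes, 5 as reported, numbered 3 with median-centred arrays (3 higher, 0 lower, against 4 and 1), 2 without an intensity trend, 0 with the adipocyte covariate, 2 with a fold of at least 1.5, 3 with the mean of a gene's probe sets, and 0 to 8 with each array left out. Called target genes, 4 as reported, numbered 7 with array weights, 8 without both arrays with other-tissue transcripts, 0 with the adipocyte covariate, 9 at an adjusted p under 0.1 and 0 to 8 with each array left out. Among 591 re-computed differences of 32 probe sets, 22 changed direction, all in probe sets that did not pass: the brighter Tgfb1 probe set was 0.02 after quantile normalization, 0.07 with median-centred arrays, 0.01 without both arrays with other-tissue transcripts and -0.09 to 0.03 with each array left out; the dimmer Tgfb1 probe set was -0.21 to 0.02 with each array left out; the second brightest Tgfb2 probe set was -0.02 without both arrays and -0.05 to 0.19 with each array left out; the brightest Tgfbr2 probe set was 0.01 with median-centred arrays, 0.12 with the adipocyte covariate, 0.06 with the mean of its probe sets and -0.16 to 0.04 with each array left out. The brighter Smad2 probe set was 0.05 with median-centred arrays, 0.04 without both arrays, 0.11 with the mean of its probe sets and -0.10 to 0.04 with each array left out. The brightest Smad3 probe set was -0.02 with the adipocyte covariate, and the second brightest Smad3 probe set was -0.09 without both arrays and 0 to 0.28 with each array left out. The cause was not tested. The other 25 probe sets kept their direction in all alternatives; 73 of the 591 lost a call and 4 gained one. With the adipocyte covariate 34 probe sets of the whole array passed, in place of 724, on 3 in place of 4 residual degrees of freedom. The mean log2 adipocyte level was 9.27, 9.82 and 10.36 in Ihh-ablated arrays and 7.98, 9.01 and 9.63 in control arrays. This covariate thus shares part of the genotype contrast. Same-numbered arrays of both groups deviated together with correlations of -0.152, -0.043 and 0.25. With 3 arrays a group, these values cannot decide whether the numbers pair the samples. With the replicate block 3 members, 6 pathway genes and 6 target genes were called. That fit had 2 in place of 4 residual degrees of freedom and called 1562 probe sets of the whole array in place of 724. The added member was Tgfbr1 (0.49, limma adjusted p = 0.0293).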
